A study of Mus musculus with 30 samples.

Results

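The genes described here are 9 genes of the epithelial-mesenchymal transition (EMT): the transcription factors Snai1, Snai2, Zeb1 and Zeb2, the cadherins Cdh1, Cdh2 and Cdh17, the epithelial surface protein gene Epcam and the intermediate filament gene Vim. They were taken by symbol, as a set chosen with earlier results of these data known, and are 9 of the 39017 genes in the count table. Their levels were measured by poly(A) RNA sequencing in 5 lines of βTC3, an insulin-producing cell line from a mouse pancreatic islet tumour. The lines labelled ALK7 and ALK7-DN carried a plasmid PB-33 for doxycycline-inducible expression of the activin type I receptor ALK7 or of its dominant-negative form. The lines sh2 and sh1/2 carried plasmid PB-31 with hairpins against ALK7, and the control line carried PB-33 without an insert named in the labels. The samples held no PB-31 line lacking a hairpin, so hairpin and plasmid cannot be told apart in the hairpin lines. All cells had 1 µg/ml doxycycline (DOX) for 24 hours, either together with 50 ng/ml activin B for 24 hours or alone, and each of the 10 groups had 3 libraries.

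Cadherins are the calcium-dependent adhesion proteins of cell-cell junctions: Cdh1 encodes E-cadherin of epithelia, Cdh2 encodes N-cadherin of neural, mesenchymal and endocrine cells, and Cdh17 encodes the liver-intestine cadherin. The Snail proteins (Snai1, Snai2) and the ZEB proteins (Zeb1, Zeb2) are zinc finger factors that bind E-box sequences and repress epithelial genes such as Cdh1. TGF-β family ligands, to which activin B belongs, are known inducers of these factors in epithelia. Activin B acts through type I receptors such as ALK7, encoded by Acvr1c, and the signal proteins SMAD2 and SMAD3.

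Library totals ran from 18904884 to 34740789 counts. Replicates were wells of 1 line plated in triplicate, so p-values measured only the spread between these wells, which may be technical. The insulin genes and 7 other beta cell markers summed to between 12018 and 23150 CPM (counts scaled to the library total) in the 30 libraries, so markers of the labelled cell type were present in all. Acvr1c, the gene targeted by the hairpins, had 40.9 to 44.5 CPM in sh2 and 25.5 to 28.0 CPM in sh1/2 with activin B, against 95.2 to 110 CPM in the control line. In bulk samples such as these, fewer cells with a transcript and less of it per cell cannot be told apart. With DOX alone it had 55.6 to 81.3 CPM in sh2 and 46.1 to 60.0 CPM in sh1/2, against 158 to 170 CPM in the control line, log2 differences of -1.27 (adjusted p = 1.05e-08) and -1.58 (adjusted p = 4.16e-11) by edgeR's quasi-likelihood test. The line labelled ALK7 had 142 to 163 CPM and the line labelled ALK7-DN 156 to 170 CPM of Acvr1c with DOX alone, so neither had more than the control line; whether the constructs' transcripts fall within the counted gene is not given in the sources used here. Activin B acted in each line: Smad7, Skil, Pmepa1 and Bambi, which encode feedback regulators of the pathway and rise with its activity, were higher in 5 of 5 lines.

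Several libraries stood apart. The counts of sh1/2 DOX replicates 1 and 3 and control activin B replicate 2 fell with the GC content of the genes, with Spearman correlations of -0.66, -0.70 and -0.73 across 10178 genes within a library, against -0.41 to 0.58 in the other libraries. Results without these 3 libraries rest, for sh1/2 with DOX alone, on 1 library (replicate 2), which the fit assumes to vary like the other groups. A second set of 4 libraries, all of them replicate 1 (ALK7-DN DOX, sh2 activin B, sh1/2 DOX and sh1/2 activin B), had 21 to 29 counts of the tight junction gene Cldn4, against 0 to 5 in the other 26. In the labels batch 2 holds 2 groups, sh2 under DOX alone and ALK7-DN under activin B, and batch 1 holds all others, so treatment and batch cannot be told apart in these 2 lines.

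The cells had a strongly N-cadherin-weighted cadherin profile with high Zeb1, and Epcam, Vim and Snai1 lay near the limit of detection. Per length of transcript (RPKM, counts scaled by exon length and library size), Cdh2 averaged 30.2 and Zeb1 9.07 over the 30 libraries. Snai2 averaged 2.21 RPKM, Cdh1 1.20, Zeb2 0.824 and Cdh17 0.608 on the same scale. The averages of the other genes, Epcam (0.153 RPKM), Snai1 (0.0920 RPKM) and Vim (0.0706 RPKM) were lower still. In raw counts Snai1 had 0 to 15 per library and was at 0 in 4 libraries, Epcam had 1 to 45 and Vim 1 to 33. At these totals 3 counts correspond to 0.0838 to 0.160 CPM, which is the level below which a gene at 0 cannot be told from a low one; this covers counting error only. 8 of the 9 genes passed the filter on low counts, which asks for about 0.354 CPM in at least 3 libraries, and Snai1 did not. Epcam passed through 6 libraries, 4 of them of sh1/2, and Vim through 9, of which 6 were of sh1/2.

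**Figure D1:**
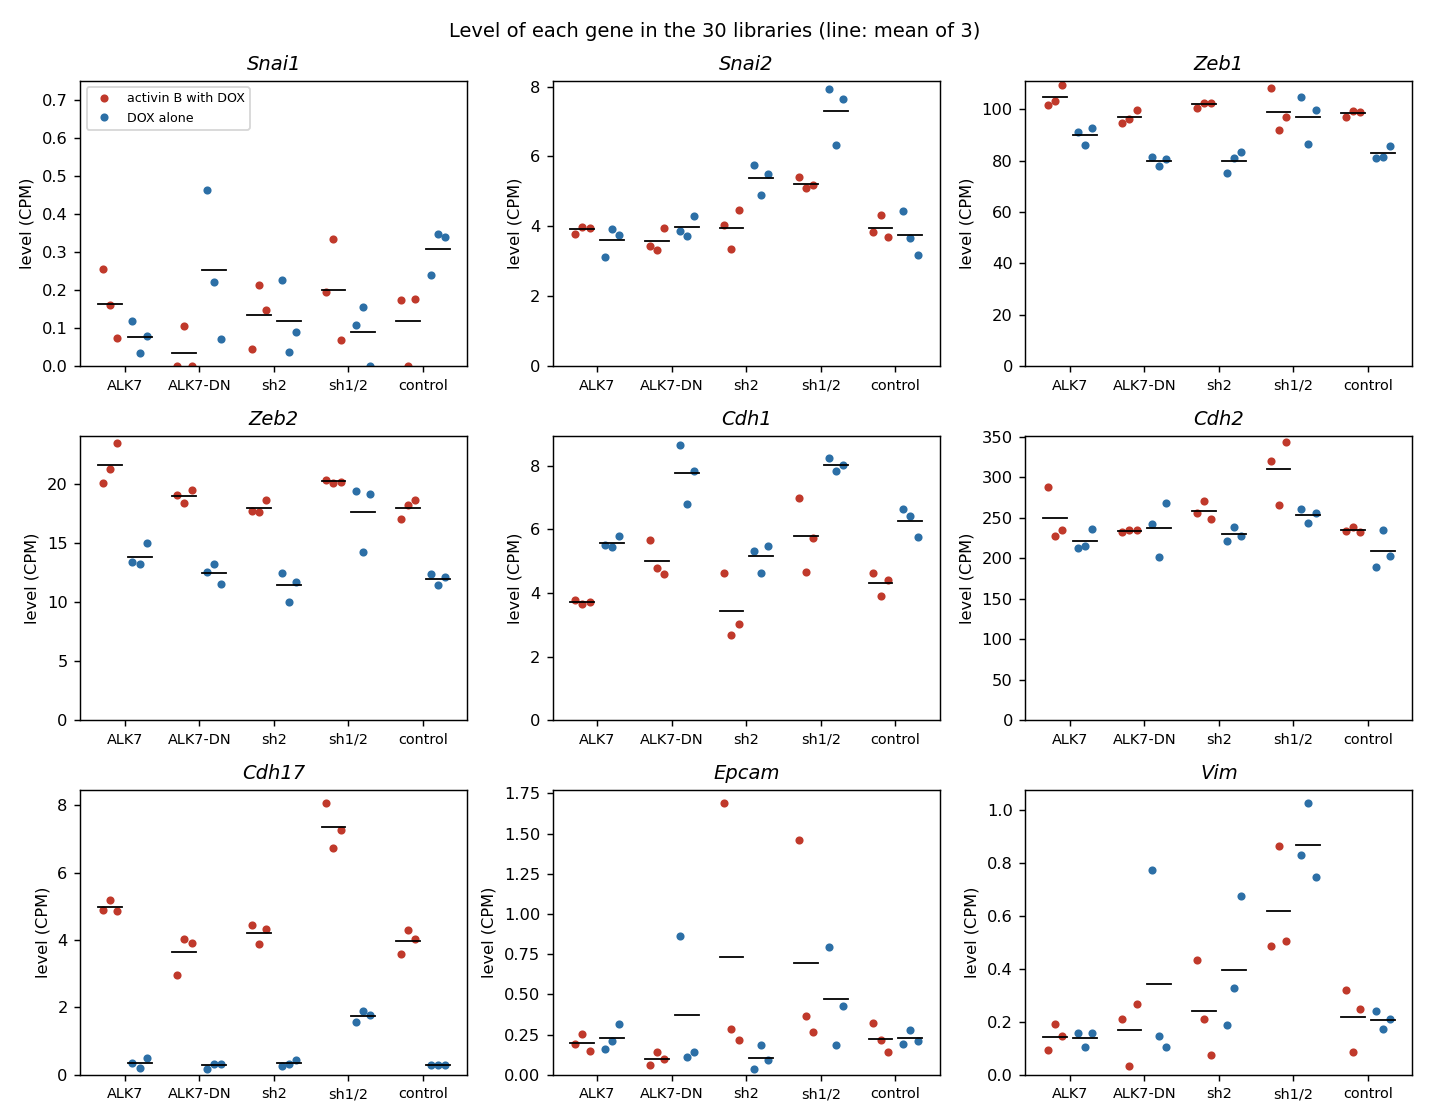
Level of each of the 9 genes (CPM, axes from 0) in 5 lines, with activin B and DOX (left of each pair) and with DOX alone (right); points are the 3 libraries of a group and bars their mean. Cdh17 separates the treatments in every line, with 2.98 to 8.06 CPM with activin B against 0.185 to 1.90 CPM with DOX alone, and Cdh1 runs the opposite way.

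By edgeR's quasi-likelihood test with Benjamini-Hochberg adjustment over all 15627 genes tested, activin B changed 22 of the 40 pairs of line and gene (5 lines, 8 genes tested). In the ALK7-labelled line 3 of the 8 genes rose and 1 fell, beside 25.3% of all genes tested that changed, 13% up and 12.3% down. The ALK7-DN-labelled line also had 3 up and 1 down, beside 16.1% of all genes (8.48% up, 7.62% down). In sh2 4 rose and 2 fell, beside 19.6% of all genes (10.7% up, 8.91% down), and in sh1/2 2 rose and 2 fell, beside 36.6% (17.5% up, 19.1% down). The control line had 3 up and 1 down, beside 20.3% (10.7% up, 9.66% down). Cdh17 rose and Cdh1 fell in all 5 lines, and Zeb1 and Zeb2 rose in 4, the exception being sh1/2.

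**Figure D2:**
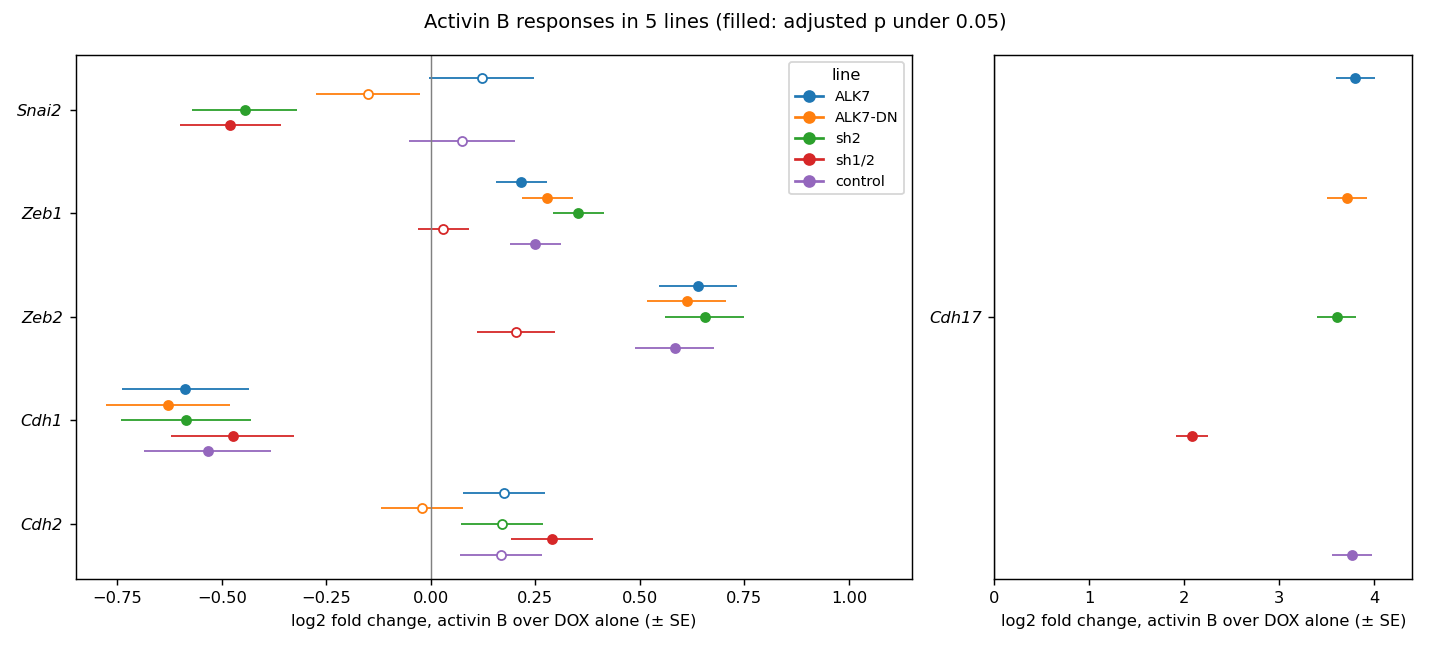
Log2 fold change of 6 genes with activin B over DOX alone (x axis, bars ± SE) in 5 lines; filled points passed an adjusted p of 0.05 by edgeR's quasi-likelihood test. Cdh17 lies between 2.08 and 3.80, Cdh1 lies below 0 in every line, and Snai2 lies below 0 with a filled point in the hairpin lines only; the difference from the control line passed the test for sh1/2 but not for sh2.

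Zeb2 rose 1.50- to 1.57-fold with activin B in 4 of the 5 lines. Zeb2 (SIP1) is a SMAD-binding repressor of Cdh1; the gene is on chr2:44983632-45117395 of mm10, minus strand. The ALK7-labelled line had 20.1, 21.3 and 23.5 CPM with activin B, against 13.4, 13.3 and 15.0 CPM with DOX alone. In the ALK7-DN-labelled line the libraries had 19.1, 18.4 and 19.5 CPM with activin B, against 12.5, 13.2 and 11.6 CPM. These groups did not overlap in either line, and the hairpin line sh2 and the control line gave the same order. Zeb2 had 17.7, 17.6 and 18.7 CPM in sh2 with activin B, against 12.5, 10.1 and 11.7 CPM with DOX alone. The control line had 17.1, 18.2 and 18.7 CPM with activin B, against 12.4, 11.5 and 12.1 CPM. The log2 fold changes were 0.64 ± 0.09 (ALK7-labelled), 0.61 ± 0.09 (ALK7-DN-labelled), 0.65 ± 0.10 (sh2) and 0.58 ± 0.09 (control; SE, n = 3 against 3 libraries), with adjusted p of at most 4.98e-05 by edgeR's quasi-likelihood test. In sh1/2 Zeb2 had 20.4, 20.1 and 20.2 CPM with activin B, against 19.4, 14.2 and 19.2 CPM with DOX alone. Here the DOX libraries were spread widely, and replicate 2, the low one, was the only DOX library of sh1/2 without the GC-dependent counts. The sh1/2 change of 0.20 ± 0.09 missed the threshold (adjusted p = 0.0853, edgeR's quasi-likelihood test). It was 0.36 with adjusted p = 0.00143 after a correction for GC content, and 0.51 with adjusted p = 0.0031 without the 3 GC-dependent libraries, where the DOX side is replicate 2 alone, the lowest of the 3, and the spread comes from the other groups. Across the 10 groups the Zeb2 level was lowest in sh2 with DOX alone (11.4 ± 1.26 CPM) and highest in the ALK7-labelled line with activin B (21.6 ± 1.71 CPM; SD, n = 3). Neighbours in this order overlapped at most steps; the gaps lay between the ALK7-DN-labelled line (12.4 ± 0.817 CPM) and the ALK7-labelled line (13.9 ± 0.958 CPM), both with DOX alone, and between the ALK7-DN-labelled line and sh1/2, both with activin B.

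RefSeq promoter windows (250 bases before to 50 after an annotated start, build GRCm38.p6) were taken for Zeb2, Epcam, Snai1 and Vim, with 7 windows in all, 4 of them Zeb2's. Those of Zeb2 and Epcam are shown because Zeb2 rose with the ligand while Epcam, the epithelial gene of the group, was near the detection limit. Capitals mark the SMAD element CAGAC or its reverse complement GTCTG and the Snail and ZEB E-box CACCTG or CAGGTG; the motifs were searched on both strands and the matches did not overlap each other. The most upstream of the Zeb2 windows is chr2:45117393-45117692 (minus strand), and the Epcam window is chr17:87635729-87636028 (plus strand).
Zeb2: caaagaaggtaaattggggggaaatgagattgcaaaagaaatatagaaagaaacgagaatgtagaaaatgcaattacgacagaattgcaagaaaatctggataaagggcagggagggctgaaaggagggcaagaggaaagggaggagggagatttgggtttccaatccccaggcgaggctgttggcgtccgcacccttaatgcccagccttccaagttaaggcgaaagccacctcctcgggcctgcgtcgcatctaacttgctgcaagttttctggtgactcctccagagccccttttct
Epcam: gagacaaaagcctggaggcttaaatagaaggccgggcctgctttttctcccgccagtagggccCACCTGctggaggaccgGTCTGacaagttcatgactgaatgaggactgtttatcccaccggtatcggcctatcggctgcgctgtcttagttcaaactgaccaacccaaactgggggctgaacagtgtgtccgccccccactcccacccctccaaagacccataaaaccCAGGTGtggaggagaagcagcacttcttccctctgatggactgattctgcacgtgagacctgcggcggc
None of the 4 Zeb2 windows held either motif in these letters. The Epcam window held 2 E-boxes, starting at positions -187 and -19 counted from the annotated start, and 1 SMAD element at position -170. Snai1's window held 1 E-box, at position -126, and Vim's held neither motif. Of the 32851 windows in the RefSeq table, 49.6% held the SMAD element and 20.2% the E-box, so that a match is common and describes the letters only. Cdh1, Cdh2, Cdh17, Snai2 and Zeb1 are named without a window.

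Zeb1 (chr18:5591860-5775467, plus strand), the other ZEB repressor, had the higher level per length of the pair and smaller fold changes. The ALK7-labelled line had 102, 103 and 109 CPM with activin B, against 91.3, 86.1 and 92.8 CPM with DOX alone. In the ALK7-DN-labelled line there were 94.6, 96.4 and 99.9 CPM with activin B, against 81.3, 78.0 and 80.6 CPM. No activin B library of these lines overlapped a DOX library of the same line. The sh2 cells had 101, 103 and 102 CPM with activin B, against 75.1, 80.9 and 83.4 CPM with DOX alone. In the control line there were 96.9, 99.5 and 99.0 CPM with activin B, against 81.2, 81.6 and 85.7 CPM. These 4 responses were 0.22 ± 0.06 (adjusted p = 0.00911), 0.28 ± 0.06, 0.35 ± 0.06 and 0.25 ± 0.06 (adjusted p = 0.00401) on the log2 scale in the order given, by edgeR's quasi-likelihood test. Without DOX replicate 2 or activin B replicate 3 the ALK7-labelled response missed the threshold (0.19 with adjusted p = 0.0569 and 0.18 with adjusted p = 0.0527). In sh1/2 the groups overlapped, with 108, 91.8 and 96.9 CPM with activin B against 105, 86.5 and 99.9 CPM with DOX alone, a log2 change of 0.03 ± 0.06 (adjusted p = 0.731). After the GC correction the same comparison gave 0.18 with adjusted p = 0.00408 (edgeR's quasi-likelihood test). Group means spanned 79.8 to 105 CPM, and the 4 lowest were DOX groups of lines other than sh1/2. A transcript on the opposite strand within Zeb1, Gm10125, had 23 to 55 counts per library, against a median of 2691 counts for Zeb1.

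Snai2 did not rise in any line. Snai2 (Slug; chr16:14705852-14709385, plus strand) had 3.79, 3.98 and 3.96 CPM with activin B in the ALK7-labelled line, against 3.12, 3.92 and 3.73 CPM with DOX alone. The ALK7-DN-labelled line had 3.43, 3.33 and 3.96 CPM with activin B, against 3.86, 3.72 and 4.30 CPM. The control line had 3.84, 4.33 and 3.68 CPM, against 4.42, 3.66 and 3.17 CPM. Groups overlapped in all 3 of these lines, and the log2 changes of 0.12 ± 0.13, -0.15 ± 0.13 and 0.08 ± 0.13 did not pass edgeR's quasi-likelihood test (95% intervals -0.13 to 0.37, -0.40 to 0.09 and -0.17 to 0.32). In the hairpin lines Snai2 fell. There were 4.03, 3.35 and 4.46 CPM in sh2 with activin B, against 5.75, 4.90 and 5.49 CPM with DOX alone. The sh1/2 libraries had 5.40, 5.08 and 5.18 CPM with activin B, against 7.92, 6.32 and 7.64 CPM. Groups did not overlap in either hairpin line. The changes were -0.45 ± 0.12 in sh2 (adjusted p = 0.0118) and -0.48 ± 0.12 in sh1/2 (adjusted p = 0.00419, edgeR's quasi-likelihood test). The sh2 change missed the threshold without DOX replicate 1 (-0.39, adjusted p = 0.0619) or activin B replicate 2 (-0.34, adjusted p = 0.0909), and its treatment and batch coincide. The sh1/2 change was -0.22 (adjusted p = 0.163) after the GC correction and -0.27 (adjusted p = 0.405) without the 3 GC-dependent libraries, with 1 DOX library left. With only the 2 groups compared in the fit, adjusted p was 0.0584 in sh2 and 0.0539 in sh1/2. An additive model with a batch term, with 1 activin B effect for all 5 lines, put Snai2 at -0.18 ± 0.07 (adjusted p = 0.0391, edgeR's quasi-likelihood test). In the order of group means Snai2 ran from 3.57 ± 0.337 CPM (ALK7-DN-labelled, activin B) to 7.29 ± 0.855 CPM (sh1/2, DOX alone). The 7 lowest groups overlapped their neighbours, and sh1/2 with activin B, sh2 with DOX alone and sh1/2 with DOX alone lay above them. Snai1 (Snail, chr2:167538195-167542814, plus strand), which is induced by TGF-β in many epithelia, did not pass the low-count filter of the main fit. Its counts were 8, 5 and 2 with activin B in the ALK7-labelled line, against 3, 1 and 2 with DOX alone, and 6, 0 and 5 in the control line with activin B, against 5, 10 and 8. The ALK7-DN-labelled line had 0, 3 and 0 counts with activin B, against 15, 6 and 2 with DOX alone. In sh2 there were 1, 6 and 4 counts with activin B, against 6, 1 and 2, and in sh1/2 6, 12 and 2, against 3, 5 and 0. In the control line the 3 CPM values with activin B (0 to 0.177) were below the 3 with DOX alone (0.240 to 0.348). The groups overlapped in the other 4 lines. Without the 3 GC-dependent libraries the smallest group had 1 library, so the filter asked for 1 library at the cutoff. Snai1 reached the main cutoff in 1 library, ALK7-DN DOX replicate 1, with 15 counts and high Cldn4. It thus entered that fit through the group where it was high. The log2 change there was -2.81 in the ALK7-DN-labelled line, whose groups overlapped. Treatment and batch coincide in that line.

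Cdh1, encoding E-cadherin (chr8:106603351-106670246, plus strand), fell with activin B in all 5 lines, to between 0.646 and 0.72 times its level with DOX alone. The ALK7-labelled line had 3.79, 3.66 and 3.70 CPM with activin B, against 5.53, 5.46 and 5.78 CPM with DOX alone. In the ALK7-DN-labelled line there were 5.65, 4.80 and 4.59 CPM with activin B, against 8.65, 6.79 and 7.84 CPM. Each activin B library was below each DOX library of its line, and the same held in the other 3 lines. The sh2 libraries had 4.63, 2.68 and 3.04 CPM with activin B, against 5.33, 4.64 and 5.49 CPM with DOX alone. In sh1/2 there were 6.99, 4.66 and 5.72 CPM with activin B, against 8.24, 7.84 and 8.02 CPM. The control line had 4.62, 3.90 and 4.43 CPM with activin B, against 6.64, 6.41 and 5.75 CPM. Log2 changes by edgeR's quasi-likelihood test were -0.59 ± 0.15 (ALK7-labelled, adjusted p = 0.00516), -0.63 ± 0.15 (ALK7-DN-labelled, adjusted p = 0.00339), -0.58 ± 0.16 (sh2, adjusted p = 0.00813), -0.47 ± 0.15 (sh1/2, adjusted p = 0.0161) and -0.53 ± 0.15 (control, adjusted p = 0.013). In the control line the call was lost without DOX replicate 1 (-0.48, adjusted p = 0.0575) or activin B replicate 2 (-0.47, adjusted p = 0.0627). The sh2 call was lost without activin B replicate 2 (-0.43, adjusted p = 0.0732) or replicate 3 (-0.50, adjusted p = 0.0559), and the sh1/2 call without DOX replicate 1 (-0.46, adjusted p = 0.0585) or activin B replicate 2 (-0.34, adjusted p = 0.107). With only the 2 groups compared in the fit the calls in sh2 (adjusted p = 0.084) and sh1/2 (adjusted p = 0.098) were lost, and without the 3 GC-dependent libraries those in sh1/2 (adjusted p = 0.258, 1 DOX library left) and the control line (adjusted p = 0.0653). In each of the 4 libraries with high Cldn4, Cdh1 was the highest of its group of 3. Group means ran from 3.45 ± 1.04 CPM (sh2, activin B) to 8.03 ± 0.200 CPM (sh1/2, DOX alone); gaps in this order lay between the ALK7-labelled line and the control line, both with activin B, and between the control line and the ALK7-DN-labelled line, both with DOX alone.

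Cdh2, encoding N-cadherin (chr18:16588877-16809246, minus strand), was the most abundant of the 9 genes per length in every group, and its change with activin B was small. It had 288, 227 and 234 CPM with activin B in the ALK7-labelled line, against 212, 215 and 237 CPM with DOX alone. The ALK7-DN-labelled line had 232, 235 and 234 CPM with activin B, against 243, 201 and 268 CPM. The control line had 234, 238 and 232 CPM with activin B, against 189, 235 and 202 CPM. Groups overlapped in these 3 lines. In sh2 there were 256, 270 and 248 CPM with activin B, against 222, 239 and 228 CPM, and in sh1/2 there were 320, 266 and 344 CPM, against 261, 244 and 256 CPM; in both hairpin lines the groups did not overlap. The sh1/2 change of 0.29 ± 0.10 passed edgeR's quasi-likelihood test (adjusted p = 0.0252), but the call was lost without any of 5 of its 6 libraries, with adjusted p between 0.0517 and 0.141, with only the 2 groups compared (adjusted p = 0.102), without the 4 high-Cldn4 libraries (adjusted p = 0.138) and without the 3 GC-dependent libraries (0.35, adjusted p = 0.188, 1 DOX library left). The changes of 0.18 ± 0.10 (ALK7-labelled), -0.02 ± 0.10 (ALK7-DN-labelled), 0.17 ± 0.10 (sh2) and 0.17 ± 0.10 (control) did not pass. An additive model with a batch term, which gives 1 activin B effect for all lines, put Cdh2 at 0.16 ± 0.04 with adjusted p = 0.00549.

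Cdh17, the liver-intestine cadherin (chr4:11758147-11817895, plus strand), had the largest response of the 8 genes tested. It rose 12.1- to 13.9-fold in 4 lines and 4.21-fold in sh1/2. With activin B the ALK7-labelled line had 4.91, 5.20 and 4.87 CPM, against 0.355, 0.210 and 0.511 CPM with DOX alone. The ALK7-DN-labelled line had 2.98, 4.03 and 3.92 CPM, against 0.185, 0.332 and 0.315 CPM. In sh2 there were 4.46, 3.88 and 4.32 CPM with activin B, against 0.265, 0.329 and 0.450 CPM. The lowest activin B library of these 3 lines was above the highest DOX library by a wide margin, and the control line had the same pattern. It had 3.58, 4.28 and 4.04 CPM with activin B, against 0.289, 0.279 and 0.296 CPM, from 6 to 8 counts per library in the DOX group. The sh1/2 line was higher in both treatments, with 8.06, 6.73 and 7.27 CPM with activin B, against 1.55, 1.90 and 1.76 CPM with DOX alone. Log2 changes were 3.80 ± 0.20 (ALK7-labelled), 3.71 ± 0.21 (ALK7-DN-labelled), 3.60 ± 0.21 (sh2), 2.08 ± 0.17 (sh1/2) and 3.76 ± 0.22 (control), with adjusted p of at most 9.93e-10 by edgeR's quasi-likelihood test. In order of group mean, the 4 DOX groups other than sh1/2 (0.277 to 0.359 CPM) overlapped each other. Above them came sh1/2 with DOX alone (1.74 ± 0.173 CPM), then the ALK7-DN-labelled line, the control line and sh2 with activin B (3.64 ± 0.579, 3.97 ± 0.359 and 4.22 ± 0.300 CPM, overlapping). The ALK7-labelled line (4.99 ± 0.183 CPM) and sh1/2 (7.35 ± 0.670 CPM) with activin B lay above those without overlap.

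Among the 3 cadherins, taken per length, activin B moved the smaller shares while Cdh2 kept the bulk. Cdh2 made up 92.9% to 95.9% of the summed RPKM of Cdh1, Cdh2 and Cdh17 in the group means. Cdh17 held 3.43 ± 0.476% of that sum with activin B in the ALK7-labelled line, against 0.276 ± 0.102% with DOX alone, while Cdh1 held 2.49 ± 0.250%, against 4.26 ± 0.134%. In the control line Cdh17 held 2.87 ± 0.241%, against 0.237 ± 0.0294%, and Cdh1 held 3.05 ± 0.294%, against 5.05 ± 0.662% (SD, n = 3). In each line the Cdh17 share was higher and the Cdh1 share lower than with DOX alone. With activin B the mean share of Cdh17 was above that of Cdh1 in the ALK7-labelled line, sh2 and sh1/2, and below it in the ALK7-DN-labelled line and the control line. In sh1/2 with DOX alone Cdh17 already held 1.16 ± 0.152%.

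**Figure D3:**
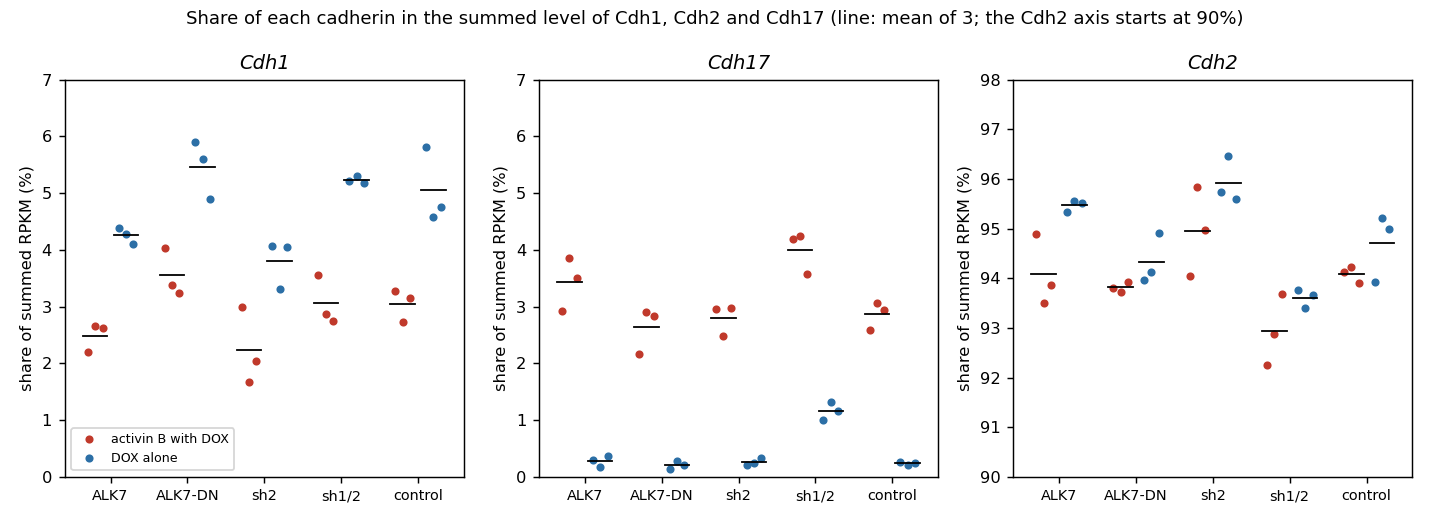
Share of Cdh1, Cdh17 and Cdh2 in their summed RPKM (y axis, %) in 5 lines, with activin B and DOX (left of each pair) and with DOX alone (right); points are libraries, bars means of 3, and the Cdh2 axis starts at 90%. Cdh17 shares lie above and Cdh1 shares below their DOX values in every line.

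Epcam and Vim had too few counts for a response to stand on several libraries. Epcam, an adhesion molecule of simple epithelia (chr17:87635979-87651129, plus strand), had counts of 39, 8 and 6 in sh2 with activin B, against 1, 5 and 2 with DOX alone. The sh2 change was 2.69 ± 0.93 with adjusted p = 0.0435 (edgeR's quasi-likelihood test), and 1.23 with adjusted p = 0.476 without activin B replicate 1, the library with 39 counts. Left out in turn, each of the 3 DOX libraries also ended the call (adjusted p from 0.0616 to 0.165). The additive model with a batch term, with 1 effect for all lines, put Epcam at 0.27 ± 0.39 (adjusted p = 0.628, edgeR's quasi-likelihood test). In the other lines Epcam had 28, 3 and 4 counts (ALK7-DN-labelled, DOX alone), 22, 6 and 8 (sh1/2, DOX alone) and 45, 13 and 8 (sh1/2, activin B), and 2 to 11 in the remaining 5 groups. The high library of each of these groups was replicate 1, and these were the 4 libraries with high Cldn4. The same libraries held 3 to 6 counts of the duct transcription factor gene Sox9, against 0 or 1 in the other 26, and 2 to 6 counts of the keratin gene Krt19, against 0 to 2. With the 4 high-Cldn4 libraries left out together, the sh2 change of Epcam was 1.23 with adjusted p = 0.17 (edgeR's quasi-likelihood test). These libraries also had the highest Epcam counts and were chosen after the values were seen, so this fit cannot test the Epcam change. The part of other epithelial cells or RNA in these libraries was not tested. Vim, the intermediate filament of mesenchymal cells (chr2:13573927-13582826, plus strand), had 1 to 15 counts in the libraries outside sh1/2 except for 25 counts in ALK7-DN DOX replicate 1. No Vim response passed the test; the log2 changes ran from -1.01 ± 0.65 in the ALK7-DN-labelled line to 0.15 ± 0.71 in the control line. The ALK7-DN-labelled value was 0.45 without DOX replicate 1.

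**Figure D4:**
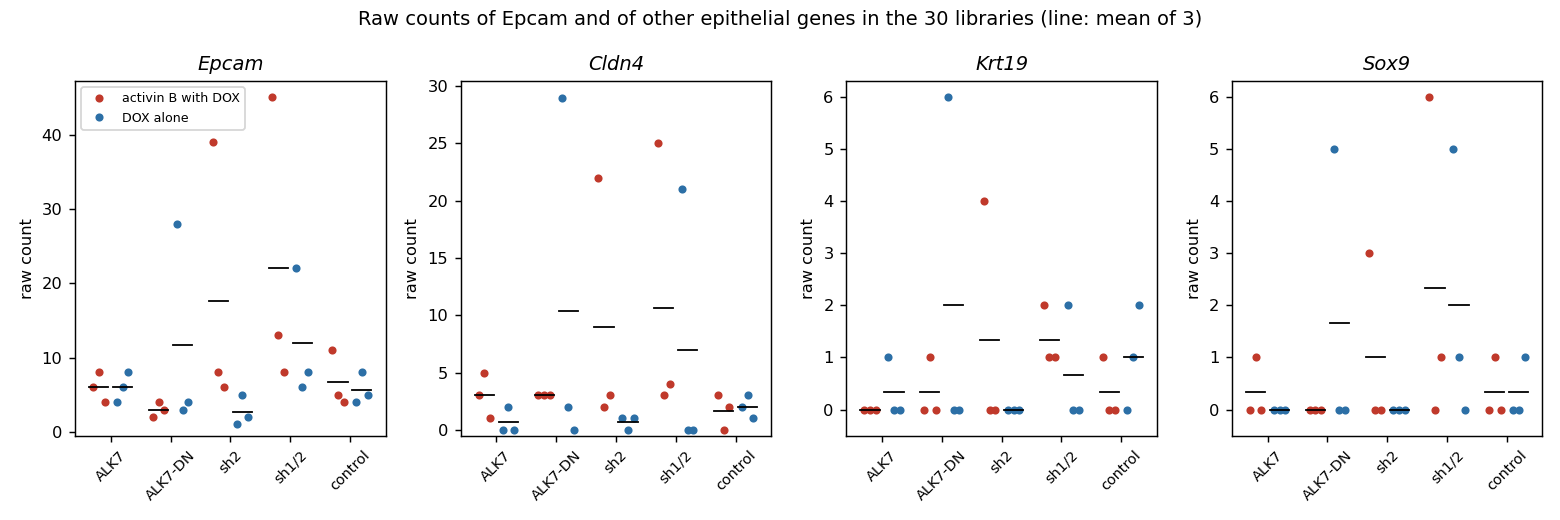
Raw counts of Epcam, Cldn4, Krt19 and Sox9 in the 30 libraries by line (x axis), with activin B and DOX (left of each pair) and with DOX alone (right); bars are means of 3. Replicate 1 of ALK7-DN with DOX alone, of sh2 with activin B and of both sh1/2 groups has 22 to 45 counts of Epcam and 21 to 29 of Cldn4.

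Whether a construct changed the response was tested as the difference of the activin B response between each line and the control line. For the ALK7-labelled line 0 of 8 genes differed by edgeR's quasi-likelihood test, 0 at an unadjusted p under 0.05 and 0 by DESeq2, beside 0.0256% of all genes. The ALK7-DN-labelled line gave 0, 0 and 0 by the same 3 counts, beside 0% of all genes, and sh2 gave 0, 1 (Snai2, -0.52 ± 0.18) and 0, beside 0.0128%. The differences for Cdh17 were 0.03 (95% interval -0.68 to 0.75) in the ALK7-labelled line, -0.05 (-0.72 to 0.61) in the ALK7-DN-labelled line and -0.16 (-0.79 to 0.47) in sh2. For Zeb2 they were 0.06 (-0.20 to 0.32), 0.03 (-0.23 to 0.29) and 0.07 (-0.19 to 0.33), and for Cdh1 -0.05 (-0.47 to 0.37), -0.10 (-0.51 to 0.32) and -0.05 (-0.47 to 0.37). In the ALK7-DN-labelled line and sh2 these differences coincide with batch. In sh1/2 2 of 8 genes differed from the control line, both downwards, beside 17.7% of all genes (9.22% downwards). That background of 2768 genes ran from 289 without sh1/2 DOX replicate 1 to 6983 without sh1/2 DOX replicate 2. On the log2 scale the Cdh17 response of sh1/2 was lower, with a difference of -1.69 ± 0.28 (adjusted p = 0.000986), and so was its Snai2 response, at -0.56 ± 0.18 (adjusted p = 0.0392, edgeR's quasi-likelihood test). In CPM Cdh17 went from 1.74 to 7.35 in sh1/2 and from 0.288 to 3.97 in the control line, so the direction for Cdh17 depends on the scale. The Cdh17 difference passed in each alternative and with each library left out, from -1.84 to -1.51. The Snai2 difference was lost without control DOX replicate 2 or 3, control activin B replicate 2, sh1/2 DOX replicate 1 or 3, or sh1/2 activin B replicate 2 or 3 (-0.55 to -0.45, adjusted p from 0.0521 to 0.137). It was -0.25 (adjusted p = 0.414) after the GC correction and -0.28 without the 3 GC-dependent libraries, with 1 sh1/2 DOX library left. The Zeb2 difference in sh1/2, -0.38 ± 0.13, had an adjusted p of 0.0502, and that of Zeb1, -0.22 ± 0.09, one of 0.0671. With replicate numbers as a block they passed, at -0.37 (adjusted p = 0.0311) for Zeb2 and -0.22 (adjusted p = 0.00951) for Zeb1. With the GC correction they were -0.19 (adjusted p = 0.329) for Zeb2 and -0.04 (adjusted p = 0.794) for Zeb1, and both settings combined gave -0.19 (adjusted p = 0.232) for Zeb2 and -0.04 (adjusted p = 0.607) for Zeb1. The Cdh1 response of sh1/2 differed by 0.06 (95% interval -0.35 to 0.47).

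Differences of the ALK7-labelled, ALK7-DN-labelled and sh2 lines from the control line mostly did not pass the test, and sh1/2 stood apart. Groups could be apart without passing. With activin B, all ALK7-labelled libraries were above the control libraries for Zeb1, Zeb2 and Cdh17 and below them for Cdh1. None of these differences passed (adjusted p from 0.11 to 0.453, edgeR's quasi-likelihood test). The other genes tested overlapped in that comparison. The share of all genes apart in this way is not given here, so the separation describes these libraries only. With activin B 4 of 8 genes were higher in sh1/2 than in the control line, beside 35.2% of all genes that differed (16.9% higher). These were Cdh17 (0.89 ± 0.16, adjusted p = 8.05e-05), Cdh2 (0.40 ± 0.10, adjusted p = 0.00252), Snai2 (0.40 ± 0.12, adjusted p = 0.0128) and Cdh1 (0.42 ± 0.15, adjusted p = 0.0329; edgeR's quasi-likelihood test). The Cdh1 difference was 0.26 without sh1/2 activin B replicate 1 (adjusted p = 0.219), the library with high Cldn4, and was also lost without sh1/2 replicate 3 (adjusted p = 0.0638) or control replicate 2 (adjusted p = 0.132) or 3 (adjusted p = 0.0597). It was lost in 4 other settings too: without the low-count filter (adjusted p = 0.0521), with only the 2 groups compared (0.0983 as adjusted p), and without the GC-dependent (0.133) or the high-Cldn4 libraries (0.0973). The Snai2 difference was lost without control activin B replicate 3 (0.36, adjusted p = 0.0561) and without the high-Cldn4 libraries (0.38, adjusted p = 0.0546). With DOX alone 6 of 8 genes were higher in sh1/2, beside 38% of all genes that differed (19.4% higher): Cdh17 by 2.58 ± 0.23, Vim by 2.07 ± 0.60 (adjusted p = 0.00911), Snai2 by 0.96 ± 0.12, Zeb2 by 0.55 ± 0.10, Cdh2 by 0.28 ± 0.10 (adjusted p = 0.028) and Zeb1 by 0.23 ± 0.06 (adjusted p = 0.00487). Without the 3 GC-dependent libraries the differences of Zeb1 (0.06, adjusted p = 0.69), Zeb2 (0.24, adjusted p = 0.133) and Cdh2 (0.22, adjusted p = 0.344) did not pass; this fit has 1 sh1/2 DOX library and takes the spread from the other groups. The Zeb1 call was also lost without sh1/2 DOX replicate 1 (0.17, adjusted p = 0.0527), and the Cdh2 call without that library, sh1/2 DOX replicate 3 or control DOX replicate 1 or 3 (0.22 to 0.27, adjusted p from 0.0716 to 0.13). With only the 2 groups compared the calls of Zeb1 (adjusted p = 0.119) and Cdh2 (adjusted p = 0.0822) were lost, and that of Cdh2 also with the GC correction (0.19, adjusted p = 0.138), with the GC correction and block (adjusted p = 0.13) and without the high-Cldn4 libraries (adjusted p = 0.118). Cdh1 in sh1/2 with DOX alone was 0.36 ± 0.15 above the control line and missed the threshold (adjusted p = 0.06).

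With DOX alone, Vim had the largest log2 difference between sh1/2 and the control line after Cdh17. In sh1/2 it had 0.488, 0.866 and 0.505 CPM with activin B, against 0.320, 0.0857 and 0.248 CPM in the control line. With DOX alone it had 0.831, 1.03 and 0.748 CPM in sh1/2, against 0.240, 0.174 and 0.211 CPM in the control line. Both pairs of groups were apart, in raw counts 14 to 33 per library in sh1/2 against 2 to 11 in the control line. With activin B the difference of 1.44 ± 0.58 missed the threshold (adjusted p = 0.0585), and without the 4 libraries with high Cldn4 it passed (1.58, adjusted p = 0.0199). The ranges of stromal markers overlapped between the lines: 7 genes such as Col1a1 and Pdgfrb summed to 1.98 to 3.10 CPM in sh1/2 and 0.986 to 2.09 CPM in the control line with activin B, and to 1.12 to 2.58 CPM and 1.50 to 2.24 CPM with DOX alone. Lum was at 0 in 29 of the 30 libraries and Col3a1 in 25. The 8 exocrine and duct markers summed to 5.53 to 6.22 CPM in sh1/2 with activin B, against 1.45 to 1.84 CPM in the control line, and to 7.84 to 11.6 CPM with DOX alone, against 2.45 to 3.07 CPM. Most of that sum was the chloride channel gene Cftr (0.546 to 10.4 CPM over the libraries), while the acinar genes Prss1 and Amy2a5 were at 0 in all 30. Immune markers (6 genes in the table of 7 listed) summed to 3.90 to 4.23 CPM in sh1/2 with activin B, against 2.14 to 2.76 CPM in the control line, and to 3.05 to 3.65 CPM with DOX alone, against 1.92 to 2.92 CPM. Endothelial markers (6 genes) summed to 1.12 to 1.82 CPM, against 0.557 to 0.885 CPM, and to 1.24 to 1.34 CPM, against 0.721 to 1.14 CPM. Unlike the stromal ranges, the immune and endothelial ranges of sh1/2 lay above those of the control line in both treatments. Per library Cd68 had 31 to 134 counts and Itgam 1 to 27 among the immune genes, and the endothelial gene Vwf had 5 to 37. The pan-leukocyte gene Ptprc was at 0 in 13 libraries and the endothelial cadherin gene Cdh5 in 27. Beta cell markers summed to 13494 to 15391 CPM in sh1/2 with activin B, against 14163 to 17689 CPM in the control line, and to 12018 to 17416 CPM with DOX alone, against 20729 to 21909 CPM. The part of these cell types in the sh1/2 levels was not tested.

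In the other lines a single difference from the control line passed: Snai2 in sh2 with DOX alone, 0.52 ± 0.13 (adjusted p = 0.00725), beside 9.99% of all genes (3.35% higher). It was lost without control DOX replicate 3 (0.42, adjusted p = 0.0684) and with only the 2 groups compared (0.52, adjusted p = 0.0792), and the sh2 DOX libraries were of batch 2. With activin B, where sh2 and the control line share batch 1, the Snai2 difference was 0.00 ± 0.13 (95% interval -0.25 to 0.25), and 0 of 8 genes differed by edgeR's quasi-likelihood test, 1 at an unadjusted p under 0.05 (Cdh1, -0.33 ± 0.16) and 0 by DESeq2, beside 9.23% of all genes. Without the 4 libraries with high Cldn4 this Cdh1 difference was -0.60 with adjusted p = 0.00419. For the ALK7-labelled line 0 of 8 genes differed with activin B (2 at an unadjusted p under 0.05, 0 by DESeq2; 4.53% of all genes) and 0 with DOX alone (1, Zeb2 at 0.21 ± 0.10, and 0; 1.98%). The 2 with activin B were Zeb2 (0.26 ± 0.09) and Cdh17 (0.33 ± 0.16). With the GC correction Zeb2 passed (0.31, adjusted p = 0.0131), and with the GC correction and block so did Zeb2 (0.32, adjusted p = 0.0044) and Zeb1 (0.14, adjusted p = 0.014). The ALK7-DN-labelled line had 0 of 8 with activin B (0 and 0; 1.65% of all genes), in a different batch from the control line, and 0 with DOX alone (1, Cdh1 at 0.31 ± 0.15, and 0; 0.966%).

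**Figure D5:**
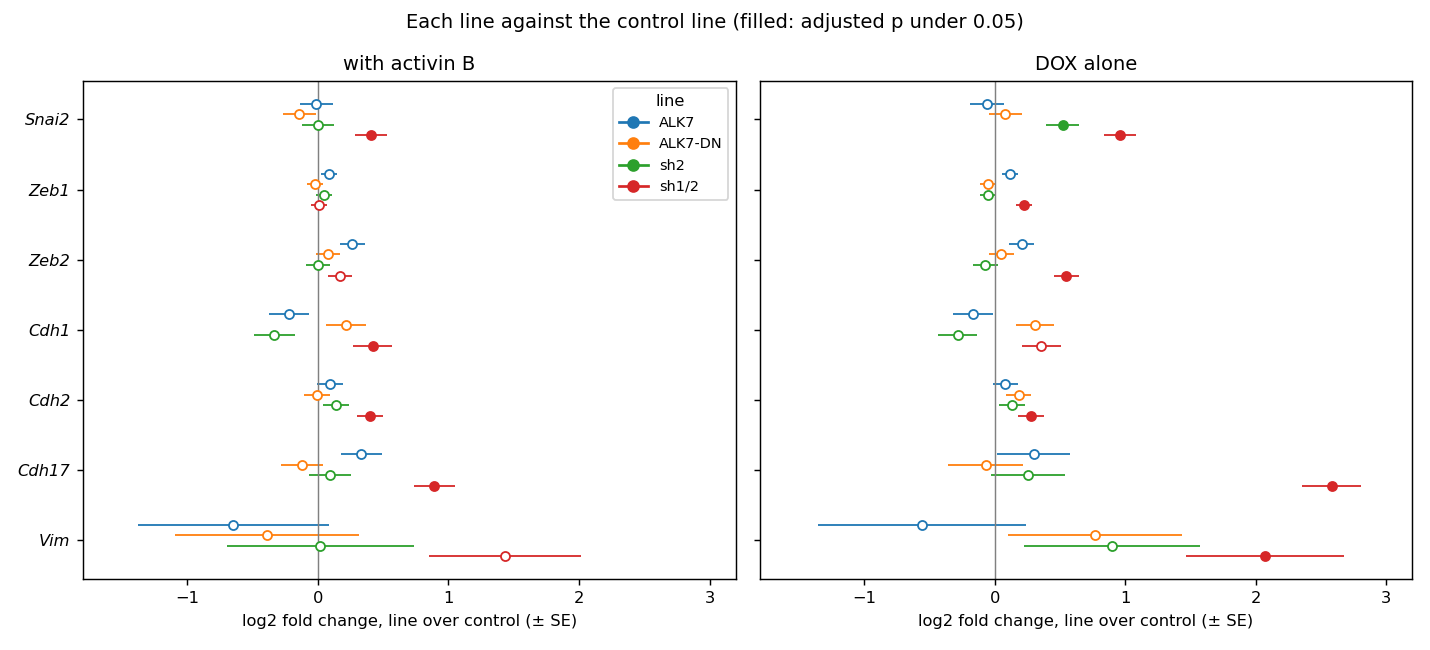
Log2 fold change of 7 genes in each line over the control line (x axis, bars ± SE), with activin B (left panel) and with DOX alone (right panel); filled points passed an adjusted p of 0.05 by edgeR's quasi-likelihood test. The sh1/2 points are filled for 4 of the genes shown with activin B and 6 with DOX alone; Snai2 in sh2 with DOX alone is the other filled point.

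Counts in the lists around these genes stand beside the 25.3% (ALK7-labelled), 16.1% (ALK7-DN-labelled), 19.6% (sh2), 36.6% (sh1/2) and 20.3% (control) of all genes that activin B changed, and several are near or below that share. Of the 12 other EMT transcription factors listed (such as Twist1 and Foxc2), 5 were expressed enough to be tested, and activin B raised 0 in the ALK7-labelled line, 1 in the ALK7-DN-labelled line, 3 in sh2, 1 in sh1/2 and 2 in the control line. In sh1/2 Zfp281 fell (-0.26 ± 0.10), a gene named after its value was seen. Foxc1, a forkhead factor, rose in the ALK7-DN-labelled line, sh2 and the control line, where it had 18.8 ± 1.04 CPM with activin B against 15.0 ± 1.58 CPM with DOX alone (0.33 ± 0.09). The medians of this list (0.23, 0.17, 0.31, 0.02 and 0.18, lines in the same order) stood beside medians of all genes of 0.00, -0.01, -0.01, -0.01 and 0.00. Of the regulators of the epithelial state 8 of 13 were tested, and the counts up and down were 2 and 2, 1 and 1, 0 and 1, 2 and 1, and 2 and 1 in the same order of lines (medians -0.18 to 0.09). Marveld3, a tight junction protein gene, fell in all 5 lines (-0.72 to -0.45), with 4.12 ± 0.493 CPM with activin B against 6.77 ± 0.405 CPM with DOX alone in the control line. Rab25, a recycling endosome GTPase of epithelia, rose in the ALK7-labelled line, sh1/2 and the control line, with group means of 0.150 to 0.782 CPM. Grhl1, an epithelial transcription factor, rose in 2 lines (0.31 ± 0.07 in the control line), and Ovol2, a repressor of Zeb1, fell in the ALK7-labelled line (-0.88 ± 0.27).

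Of the 24 junction and keratin genes listed, 18 were tested; the counts up and down were 5 and 3 (ALK7-labelled), 2 and 2 (ALK7-DN-labelled), 3 and 3 (sh2), 2 and 1 (sh1/2) and 2 and 3 (control), with medians of -0.11 to 0.23. Krt7, a simple epithelial keratin, rose in all 5 lines by 1.48 to 1.82, with 39.2 ± 1.63 CPM with activin B against 11.3 ± 0.766 CPM with DOX alone in the control line. The claudin gene Cldn6 rose in 4 lines by 1.60 to 2.02 with group means of at most 1.52 CPM. Dsg2, encoding a desmosomal cadherin, fell in all 5 lines (-0.76 to -0.35), and Lsr, a protein of tricellular junctions, fell in 4 (-0.66 to -0.41). Of 24 mesenchymal genes 12 were tested; 1 rose and 1 fell in the ALK7-labelled line, 1 and 0 in the ALK7-DN-labelled line, 3 and 0 in sh2, 0 and 2 in sh1/2 and 2 and 0 in the control line (medians -0.30 to 0.31). S100a4, a calcium-binding protein used as a mesenchymal marker, rose in 4 lines by 1.94 to 2.89, with 4.02 ± 0.189 CPM with activin B against 1.05 ± 0.107 CPM with DOX alone in the control line. The actin-binding gene Tagln rose in sh2 and the control line with group means of no more than 0.544 CPM, and the collagen receptor gene Ddr2 fell in the ALK7-labelled line (-0.41 ± 0.08) and sh1/2 (-0.53 ± 0.08).

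Among 20 other cadherins 10 were tested, and 0 to 2 rose and 2 or 3 fell per line (medians -0.33 to -0.03). Cdh8, a type II cadherin of neural tissue, fell in all 5 lines (-0.52 to -0.35), with 83.6 ± 4.75 CPM with activin B against 115 ± 5.75 CPM with DOX alone in the control line. Cdh4 fell in the ALK7-DN-labelled line and the control line (-0.38 ± 0.08), Cdh23 fell in sh2 and sh1/2, and Cdh22 rose in the ALK7-labelled line (0.93 ± 0.19) and sh1/2 (1.47 ± 0.20). Of 7 catenins, the proteins that join cadherins to actin, 6 were tested and 1 or 2 rose per line (medians -0.03 to 0.12). Ctnnb1, β-catenin, rose in 4 lines by 0.13 to 0.15. These lists were drawn up with earlier results of these data known, and their counts describe them only.

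Over the 30 libraries the genes whose pattern was nearest to Cdh17, by the root-mean-square difference of centred log2 CPM, were Kcng4 (0.528), a potassium channel subunit, Tph1 (0.605), which makes serotonin, and Igfbpl1 (0.609). Nearest to Vim were Fosb (0.543), Hspa1a (0.558) and Pcdh18 (0.575), and nearest to Epcam were Lif (0.473), Ddah1 (0.518) and Tpm2 (0.541), all on the same log2 scale. Lif, Ddah1 and Tpm2 had mean log2 CPM of -2.66, -3.21 and -3.22, near the detection limit, where small distances say little about a shared pattern. Libraries of a line share cells and handling, so these distances are descriptions.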

How the data were processed

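Poly(A) RNA of 30 βTC3 libraries in 10 groups of 3 was sequenced; Trizol extraction and a stranded TruSeq mRNA kit are given per the labels' protocols. The authors deposited raw counts per gene, which were used as deposited; per the submitters' processing notes bcl2fastq 2.17, cutadapt 1.4.2, HISAT2, featureCounts 1.4.4 and edgeR were used with mm10, and the strand setting of counting is not given in the sources used here. The 30 count columns were assigned by name, 0 were left unassigned, and each was identical to its single-sample file; 0 rows named no gene. Counts of replicates differed beyond sampling noise (chi-square per degree of freedom 7.74 to 53.1).

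The 9 members and all lists were chosen with earlier results of these data known. Genes were filtered with filterByExpr (15627 of 39017 tested), scaled by TMM and tested with edgeR 4.0.16 quasi-likelihood tests (R 4.3.3) on 10 group means fitted to all 30 libraries, with Benjamini-Hochberg adjustment over all genes tested and a threshold of 0.05. There were 17 contrasts: 5 activin B responses, 4 differences of a response from the control line, and 4 lines against the control line in each treatment. CPM used TMM-scaled totals; RPKM used GENCODE M21 exon lengths, a table that also gave coordinates; intervals are estimates ± 1.96 SE. Distances between patterns used log2 CPM with a prior count of 2. The test was checked on simulated counts.

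Alternatives were DESeq2 1.42.0, no filter, only the groups compared, replicate numbers as a block, a GC content correction (GC known for 98.9% of genes tested), each library left out, the 3 GC-dependent libraries left out, an additive model with a batch term and, chosen after the values were seen, the 4 high-Cldn4 libraries left out. Replicate numbers come from the labels. Correlations of same-numbered libraries had a lowest r of 0.107 to 0.271 for the responses of 4 lines, which were counted as paired. The lowest r was 0.0734 in sh2 and -0.434 to 0.0838 between lines, and these were not counted as paired. The cutoff between 0.0734 and 0.107 separates similar values, and the main fit used no replicate block. Beside the 9 members and the pathway checks, up to 4 genes per list were named, those called in the most of the 5 responses, with ties by the control line's p, and 3 nearest genes for the 3 tested members of widest range (Cdh17, Vim, Epcam).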

Additional observations from a re-analysis of the deposited data

Results flagged for a closer look

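The response to activin B differed between the sh1/2 line and the control line for 2 of 8 genes, beside 17.7% of all genes (9.22% lower). That background ran from 289 to 6983 genes with 1 library left out. The Cdh17 response in sh1/2 was lower by a log2 difference of -1.69 ± 0.28 (SE, adjusted p = 0.000986, edgeR's quasi-likelihood test). Cdh17 had 7.35 CPM with activin B and 1.74 CPM with DOX alone in sh1/2, against 3.97 CPM and 0.288 CPM in the control line. The direction for Cdh17 thus depends on the scale. The Snai2 response differed by -0.56 ± 0.18 (adjusted p = 0.0392), and this difference missed the threshold in 13 of its 20 alternatives and single-library omissions, while that of Cdh17 passed in 20 of 20. Both involve the libraries with GC-dependent counts; without these 3, where sh1/2 with DOX alone is 1 library and the spread comes from the other groups, the differences were -1.75 (Cdh17) and -0.28 (Snai2).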

How the results depend on the processing

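Alternative settings were tallied for the responses and for the other single-gene comparisons with an adjusted p under 0.1 as reported (edgeR's quasi-likelihood test). Under them 403 values kept their direction and side of the threshold, 35 lost the call, 20 gained one and 6 reversed. With 1 library left out, 312, 37, 4 and 13 did so. The additive model's 1 effect for all lines was entered under both the ALK7-DN-labelled and the sh2 responses. The rises of Cdh17 in 5 lines and of Zeb2 in the ALK7-labelled, ALK7-DN-labelled, sh2 and control lines, and the fall of Cdh1 in the ALK7-labelled and ALK7-DN-labelled lines, passed in all settings run. Calls outside this tally were gained for Zeb1 and Zeb2 against the control line with activin B (ALK7-labelled and sh1/2, with the GC correction alone or with the block) and for Cdh1 in sh2 with activin B. Another was Snai1 in the ALK7-DN-labelled line without the 3 GC-dependent libraries (-2.81). Snai1 entered that fit through 1 library, DOX replicate 1 of this line, and was not tested in the main fit. Counts near the detection limit bound what Snai1, Epcam and Vim can show. The causes of the changes below were not tested.

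The 22 called responses were 17 to 24 in other settings and 20 to 22 with a library left out. The 2 called differences of response became 4 with DESeq2 or the replicate block, and 1 without the filter, with only the groups compared, with the GC correction alone or with the block, and without the 3 GC-dependent or the 4 high-Cldn4 libraries (1 to 4 with a library left out). The 7 calls against the control line with DOX alone were 4 with only the groups compared and 4 without the GC-dependent libraries (5 to 8 with a library left out). The 4 with activin B were 7 with the GC correction and 10 with the GC correction and block (2 to 5 with a library left out).

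Reversed values all belonged to responses that had not passed. The additive batch model's 1 effect for all lines, set beside the ALK7-DN-labelled responses, was 0.16 for Cdh2 and 0.27 for Epcam. These are not responses of that line alone. Without the 4 high-Cldn4 libraries the ALK7-DN-labelled response of Vim was 0.45. The control line's Epcam response was 0.0325 with the GC correction, 0.0496 with the GC correction and block and 0.0292 without the GC-dependent libraries. With a library left out, the Epcam response ran from -0.41 to 0.10 (ALK7-labelled), -0.54 to 1.27 (sh1/2) and -0.39 to 0.24 (control), and the Vim response from -0.21 to 0.28 (ALK7-labelled), -1.44 to 0.45 (ALK7-DN-labelled) and -0.25 to 0.47 (control). Likewise Cdh2 ran from -0.13 to 0.0747 (ALK7-DN-labelled), Zeb1 from -0.0478 to 0.0899 (sh1/2) and Snai2 from -0.0312 to 0.21 (control).

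Where the replicate numbers did not pair the samples, the block gave Cdh1 in sh1/2 with DOX alone 0.36 (adjusted p = 0.0163) and Vim in sh1/2 with activin B 1.48 (adjusted p = 0.0489, edgeR's quasi-likelihood test); beyond these and the paired Zeb1 and Zeb2 differences of sh1/2 it changed no call among the 8 genes.

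Counts over all genes moved by over 1.5 times in the following cases. For the sh1/2 response 5723 became 1555 with only the groups compared, 3782 with the GC correction, 1476 without the GC-dependent and 2305 without the high-Cldn4 libraries. For the control response 3180 became 1734 with only the groups compared and 5418 with the GC correction and block, which also gave 6230 against 3953 (ALK7-labelled), 4747 against 2515 (ALK7-DN-labelled) and 5643 against 3070 (sh2). The additive model gave 6352 for its 1 effect shared by all lines. For the response difference of sh1/2 2768 became 989 without the filter, 45 with only the groups compared, 5956 with the block, 879 with the GC correction, 64 without the GC-dependent and 178 without the high-Cldn4 libraries. With 1 library left out it was 289, 6983 or 303 (sh1/2 DOX replicate 1, 2 or 3), 507 or 528 (sh1/2 activin B replicate 2 or 3), 411 or 687 (control DOX replicate 1 or 3) and 5111 or 324 (control activin B replicate 1 or 2), and the sh1/2 response was 3055 or 2974 without sh1/2 DOX replicate 1 or 3. That of the ALK7-labelled line, 4, ran from 0 to 472 (1 to 21 with a library left out), that of the ALK7-DN-labelled line, 0, to 3, and that of sh2, 2, from 0 to 19 (1 with any of 10 libraries left out). Against the control line with DOX alone, sh1/2 (5934) had 2430 with only the groups compared and 3351 without the GC-dependent libraries, and the counts ran from 151 to 1429 (ALK7-labelled, 310), 25 to 620 (ALK7-DN-labelled, 151) and 863 to 3860 (sh2, 1561). Leaving out any of 5 libraries gave 151 to 162 (ALK7-labelled), and leaving out any of the 6 gave 67 to 88 (ALK7-DN-labelled). With activin B they ran from 46 to 1901 (ALK7-labelled, 708), 11 to 919 (ALK7-DN-labelled, 258) and 440 to 3521 (sh2, 1443), with 360 and 391 without ALK7-labelled replicate 2 or 1, and a similar count without control replicate 2 (ALK7-labelled), and 172 without ALK7-DN-labelled replicate 2.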
